A study of Mus musculus with 10 samples.

Results

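The TOX family comprises 4 nuclear proteins, encoded in the mouse by Tox, Tox2, Tox3 and Tox4, that share a single HMG box, a DNA-binding fold that also occurs in TCF1, LEF1 and TFAM. All 4 genes were taken from the RNA count table of regulatory T cells (Treg) by matching Ensembl IDs to symbols, 4 of 22553 genes in all. They are Tox (ENSMUSG00000041272), Tox2 (ENSMUSG00000074607), Tox3 (ENSMUSG00000043668) and Tox4 (ENSMUSG00000016831). The family was chosen by a measured value, the lower count of Tox2 in Tfam-deficient Treg of these same libraries, so the difference of each member between the groups is given as a description, with no test.

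Treg are CD4 T cells that depend on the transcription factor Foxp3 and hold other immune cells in check. They were sorted by their YFP signal out of pooled lymph nodes and spleen of C57BL/6 littermates, all female, and their poly(A) RNA was sequenced. Control mice (3 libraries) were Tfam fl/+ Foxp3 Yfp-Cre/+ and knockout (KO) mice (3 libraries) were Tfam fl/fl Foxp3 Yfp-Cre/+; age is not given in the sources used here. Cre is expressed from the Foxp3 locus in both groups, so control cells also lose 1 Tfam copy where Cre acts, and each library pooled cells of 2 to 3 mice. Foxp3 is X-linked and all mice were heterozygous for the Cre allele, so they also hold Treg without Cre, which the YFP sort leaves out. ATAC libraries (2 per genotype) were not analysed here.

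TOX is best known from thymocytes, where it is needed for the CD4 lineage, and from chronically stimulated CD8 T cells, where calcineurin and NFAT signalling induces it and it maintains the exhausted state. TOX2 is associated with follicular helper T cells, natural killer cell maturation and, together with TOX and the NR4A receptors, with exhaustion. TOX3 is known mainly from neurons and epithelium. TOX4 is broadly expressed and belongs to a nuclear phosphatase complex with PNUTS, WDR82 and PP1.

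The libraries held between 19087757 and 27490253 gene counts. Levels are given as CPM, counts scaled to one library size with TMM factors, and calls are by edgeR's quasi-likelihood test at a Benjamini-Hochberg adjusted p under 0.05 over 11990 tested genes. Tfam, the targeted gene, measured 25.9, 30.6 and 42.4 CPM in the control libraries against 15.6, 14.4 and 16.5 CPM in the KO libraries, with no overlap. The 6 Treg and T cell markers examined, Foxp3, Il2ra, Ctla4, Ikzf2, Cd3e and Cd4, were all present, with a summed level of 2265 to 2556 CPM in control and 2292 to 2492 CPM in KO. The log2 fold change was 0.14 ± 0.10 (SE) for Foxp3, with an edgeR adjusted p of 0.613. The sum of 11 red pulp macrophage markers was 414 to 885 CPM in control and 460 to 1262 CPM in KO, highest in replicate 2 of each group, and its part in the differences given here was not tested.

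Sequence from a pair of RefSeq promoter windows of Tox2 is shown because the gene has several start sites and the counts sum reads over all of them. Of the 4 members, 3 matched the RefSeq promoter table (build GRCm38.p6), and Tox2 had 5 listed windows. The upstream sequence is the part of the first window that lies before the gene's first annotated base, at chr2:163202877-163203057 on the plus strand, which cuts the window's 250 bases to 181. The downstream sequence is the whole 250 bases before a start inside the gene, at chr2:163225203-163225452 on the plus strand. Both are written 5′ to 3′, and capitals mark matches on either strand to the short motifs of NFAT (GGAAA), TCF and LEF factors (ATCAAAG) and AP-1 (TGANTCA).
Tox2 upstream window: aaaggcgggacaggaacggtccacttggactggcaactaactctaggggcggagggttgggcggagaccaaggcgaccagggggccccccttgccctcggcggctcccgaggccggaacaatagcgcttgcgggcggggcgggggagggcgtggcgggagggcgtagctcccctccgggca
Tox2 downstream window: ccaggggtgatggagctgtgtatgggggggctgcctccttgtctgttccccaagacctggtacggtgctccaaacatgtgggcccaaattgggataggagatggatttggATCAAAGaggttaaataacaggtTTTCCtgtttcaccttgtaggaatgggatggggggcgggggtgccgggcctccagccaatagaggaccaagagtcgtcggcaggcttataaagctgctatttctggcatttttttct

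The windows differed in composition. The 181 upstream bases shown held 71.8% G and C and 17 CpG dinucleotides. The full 250 bases of that window held 75.2% G and C, 27 CpG and none of these motifs. The downstream window held 52.8% G and C and 5 CpG in 250 bases, close to the median of 52.4% and 6 CpG over all 32817 RefSeq windows of 250 bases. It had 1 TCF and LEF match, found in 3.21% of all windows, and 1 NFAT match on the minus strand, printed as TTTCC and found in 55.6%. AP-1 matches, absent here, occurred in 6.75%. The matches do not overlap each other and describe these letters only. The 250 bases before the listed starts of Tox3 and Tox4 held 84.4% and 64.8% G and C and none of the motifs. Gene-level counts do not tell which Tox2 start was used in either group.

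Tox2 was the member with the large difference. It was counted 290, 261 and 269 times in control replicates 1 to 3 and 51, 23 and 29 times in KO replicates 1 to 3. Scaled for depth, this was 11.1, 11.9 and 9.83 CPM against 2.15, 1.12 and 1.52 CPM. Every KO library lay below every control library, and KO replicate 1 was the highest of the KO libraries. The group means were 10.9 ± 1.03 CPM in control and 1.60 ± 0.52 CPM in KO (SD, n = 3 each), a mean 85.4% lower. The fitted log2 fold change was -2.76 ± 0.22 (SE), or 6.77-fold lower in KO. Summed over libraries, 820 control counts stood against 103 KO counts, a depth-scaled ratio of 6.68 with an exact binomial 95% interval of 5.44 to 8.28, which covers counting error only. In bulk RNA, fewer cells that express Tox2 and less Tox2 RNA per cell cannot be told apart.

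Same-numbered control and KO libraries varied together across genes, and within these pairs the Tox2 difference was -2.37, -3.41 and -2.69 on the log2 scale for numbers 1 to 3. All 3 pairs therefore showed a several-fold lower level in KO, widest in number 2. Without both libraries numbered 2, those with the highest macrophage marker sums, the fitted value was -2.49. With a single library left out it lay between -3.04, without KO replicate 1, and -2.55, without KO replicate 2.

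Tox, the founding member, was far more heavily counted and differed little, with 10711 counts in all from control and 7724 from KO. The control libraries, in the order of their numbers, gave 139, 135 and 151 CPM and the KO libraries 127, 118 and 120 CPM. The groups did not overlap, with 135 CPM in the lowest control library and 127 CPM in the highest KO library, a gap below the SD of the controls. The means were 142 ± 8.44 and 122 ± 4.38 CPM (SD, n = 3 each), a mean 13.9% lower in KO. The fitted log2 fold change was -0.22 ± 0.07 (SE), and the pairs gave -0.14, -0.19 and -0.33.

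Tox4, the broadly expressed member, gave 95.9, 97.0 and 104 CPM in the control libraries, again by number. The KO libraries gave 89.5, 89.1 and 89.6 CPM, a tight set just below the lowest control library. The means were 99.0 ± 4.39 and 89.4 ± 0.27 CPM (SD, n = 3 each), and the fitted log2 fold change was -0.15 ± 0.06 (SE). Tox4 overlaps Rab2b at its start and Mettl3 at its end in the RefSeq table. The strand setting of the counting is not given in the sources used here, so reads of the shared stretches may be unassigned or assigned to the wrong gene.

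Tox3 was barely detected. It had 1, 0 and 2 counts in control replicates 1 to 3 and 3, 4 and 0 in KO replicates 1 to 3, and it did not pass the filter on low counts. The groups overlapped, and a count of 3 corresponds to between 0.110 and 0.157 CPM in these libraries. The depth-scaled ratio of KO to control was 2.78 with an exact binomial 95% interval of 0.635 to 16.7. The interval covers counting error only and includes equal levels, so these counts do not give a direction.

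**Figure D1:**
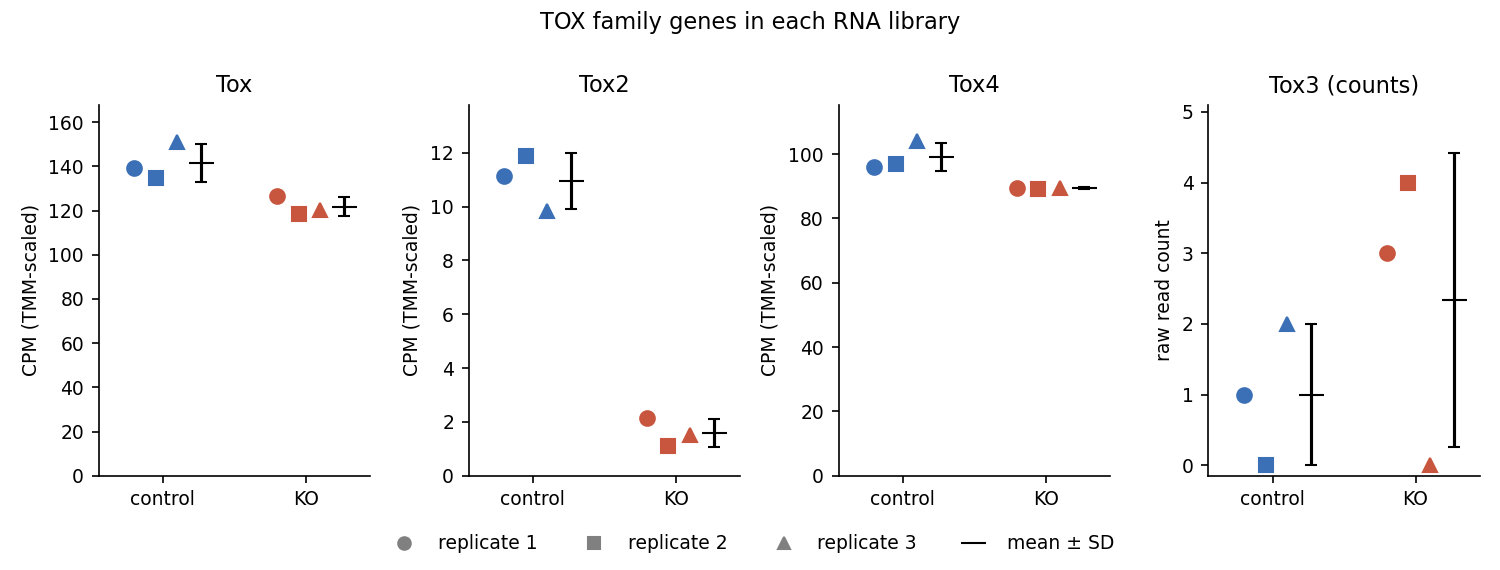
TMM-scaled CPM of Tox, Tox2 and Tox4 and raw counts of Tox3 (vertical axes) in the 3 control and 3 KO libraries, with symbols for the replicate number and the mean ± SD beside each group. Tox2 lies between 9.83 and 11.9 CPM in control and between 1.12 and 2.15 CPM in KO, while Tox and Tox4 differ by a small part of their level and Tox3 lies at 0 to 4 counts.

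Of all 11990 tested genes, 1.39% were called lower in KO and 0.1% higher. The 3 members that passed the filter on low counts are among the tested genes. The contrast is the one that drew attention to the family, so no call is given for them. With the replicate number as a block, 4.39% of tested genes were called lower and 1.97% higher. All 3 tested members had KO libraries below every control library, as had 10.4% of all tested genes, and 8.63% had them above every control library. Tox2 had the 16th lowest fitted value of 11990 genes and the 5th lowest of the 9295 genes that averaged 5 CPM or more.

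Ratios of counts within a library need no scaling between libraries. Per 100 Tox counts there were 8.01, 8.82 and 6.51 Tox2 counts in control replicates 1 to 3 and 1.70, 0.947 and 1.26 in KO replicates 1 to 3. The means were 7.78 ± 1.17 and 1.30 ± 0.38 (SD, n = 3 each), and no KO library came near a control library. Tox4 counts per 100 Tox counts were 70.0 ± 1.83 in control and 73.4 ± 2.49 in KO (SD, n = 3 each), with overlapping groups. These ratios compare libraries only. Transcript lengths were not used here, so they do not say which gene has more transcripts.

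**Figure D2:**
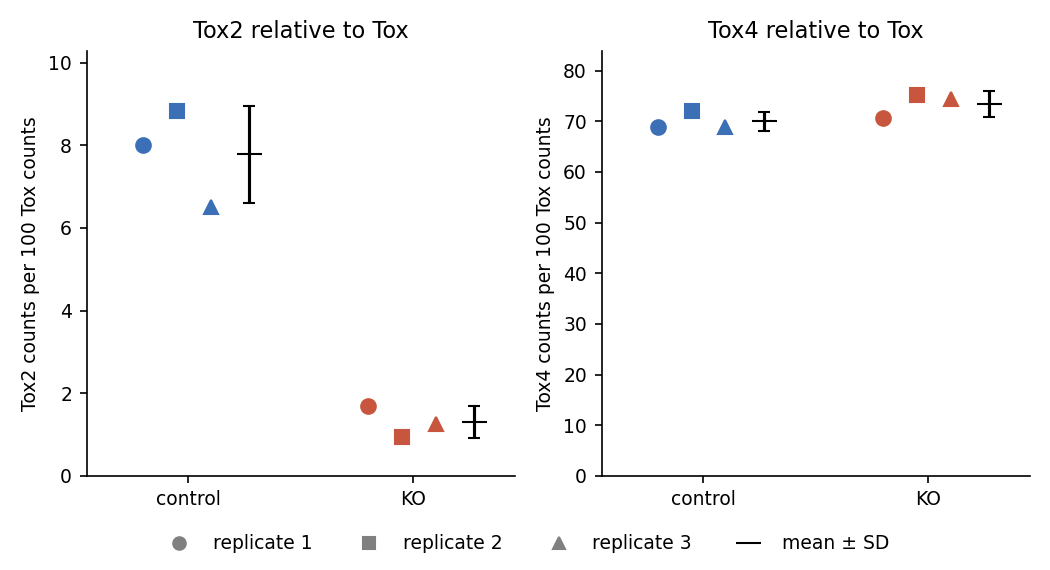
Tox2 counts (left) and Tox4 counts (right) per 100 Tox counts in each library, with symbols for the replicate number and the mean ± SD of each group. The Tox2 ratio averages 7.78 in control and 1.30 in KO, and the Tox4 ratio lies between 68.9 and 75.3 in all 6 libraries.

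The spread among replicates also differed between the members, but 3 libraries per group fix such a value poorly. The coefficient of variation of Tox was 5.97% in control and 3.60% in KO, against medians of 6.11% and 5.48% for the 200 genes nearest to it in level. For Tox4 the values were 4.44% and 0.307%, against 5.80% and 5.32%. Tox2 varied by 9.45% in control, against 11.01% for genes of its level, and by 32.6% in KO, against 19.9%. Its KO libraries, with 23 to 51 counts each, were thus the least even of the members tested.

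Genes beside the members on the chromosome are given for comparison, the nearest 2 protein-coding genes on each side in the RefSeq order of GRCm38.p6. Of these 16 neighbours, 12 were tested and 0 were called by edgeR (adjusted p between 0.129 and 0.982), while 2, Nsmaf and Rbl2, had an unadjusted p under 0.05. With the block 2 were called lower, Nsmaf (adjusted p = 0.022) and Rbl2 (0.0344), and DESeq2 called 1, Nsmaf (0.0454), whereas limma-voom called 0. Over all tested genes edgeR called 1.39% lower without the block and 4.39% with it, and DESeq2 called 263 of 16256 lower. Beside Tox2, the oxidative stress gene Oser1 had 15.8 ± 1.86 CPM in control against 15.6 ± 1.49 CPM in KO (SD, n = 3 each; log2 fold change -0.02 ± 0.12). The cell cycle transcription factor Mybl2 had a log2 fold change of -0.14 ± 0.26. The other neighbours of Tox2, Gtsf1l and Jph2, had 3 counts and 1 count over all 6 libraries.

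The neighbours of Tox, Nsmaf, Sdcbp and Rab2a, had log2 fold changes of -0.29 ± 0.07, -0.08 ± 0.08 and -0.09 ± 0.10. Car8, with 16 counts in all, was not tested. Nsmaf, which encodes an adaptor of a tumour necrosis factor receptor, had 125 ± 5.49 CPM in control against 102 ± 7.96 CPM in KO (SD, n = 3 each), a fitted value below that of Tox itself. Of the genes around Tox3, the deubiquitinase Cyld (-0.01 ± 0.09), the chromatin remodeller Chd9 (-0.04 ± 0.08) and the retinoblastoma relative Rbl2 (-0.24 ± 0.07) were well expressed, while Sall1 had 0 counts. The genes that overlap Tox4, Rab2b and the RNA methyltransferase Mettl3, had log2 fold changes of -0.07 ± 0.12 and 0.15 ± 0.08. Further out, the chromatin remodeller Chd8 stood at 0.10 ± 0.07 and the transcription factor Sall2 at -0.01 ± 0.08.

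**Figure D3:**
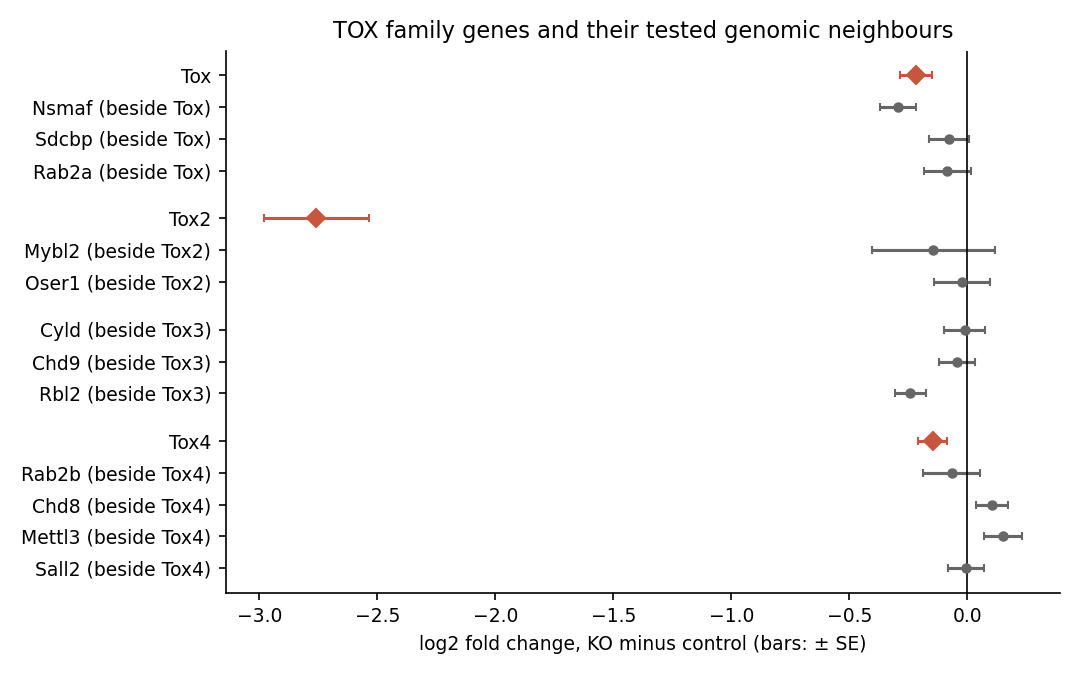
Fitted log2 fold change of KO against control (horizontal axis, bars ± SE) for Tox, Tox2 and Tox4 (diamonds) and the 12 tested protein-coding neighbours of the family (circles). Tox2 stands at -2.76, and the neighbours lie between -0.29 and 0.15.

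Genes upstream of TOX and TOX2 in T cells, the calcineurin, NFAT and NR4A genes, did not pass the test. Of 16 listed genes, 16 were tested, and edgeR called 0 lower and 0 higher, as did DESeq2 and limma-voom. At an unadjusted p under 0.05 there were 2, Nfatc1 and Orai1. The median log2 fold change was -0.04, against -0.0045 over all tested genes. The most abundant were Nr4a1, a receptor induced by antigen signalling, with 620 ± 101 CPM in control libraries and 677 ± 141 CPM in KO libraries, and the NFAT factor Nfatc3, at 312 ± 15.4 and 303 ± 12.8 CPM (SD, n = 3 each). The Nr4a1 log2 fold change was 0.13 ± 0.16 (adjusted p = 0.797), and it turned to -0.017 without KO replicate 2 and to -0.010 without both libraries numbered 2. With the replicate block 1 gene of the list was called lower, Nr4a2 (log2 fold change -0.55 ± 0.39 without the block), at an adjusted p of 0.0216 in edgeR. Of all tested genes 1.39% were called lower without the block and 4.39% with it.

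Among 11 inhibitory receptor and exhaustion genes, which accompany TOX in chronically stimulated T cells, 2 fell, 0 rose and 9 did not pass. Tigit, a co-inhibitory receptor, went from 30.6 ± 5.46 to 3.96 ± 0.72 CPM (log2 fold change -2.94 ± 0.17, edgeR adjusted p = 0.000434) and was called whichever library was left out. Pdcd1, which encodes PD-1, went from 35.9 ± 3.71 to 22.1 ± 1.06 CPM (-0.70 ± 0.09, adjusted p = 0.0105). Its call was lost without KO replicate 1, 2 or 3 (adjusted p = 0.0694, 0.0664 and 0.0517) and without both libraries numbered 2 (0.11), each time leaving 1 gene of the list called. Its log2 fold change lay between -0.75 and -0.61 with any single library left out. The list median was -0.25, and 10 of the 11 fitted values were below 0, as were 51.2% of all tested genes. With the block 5 were called lower, Lag3 (adjusted p = 0.00231), Cd160 (0.0294) and Ctla4 (0.0432) in addition. Of all tested genes, the fit without the block called 1.39% lower and the fit with it called 4.39% lower. DESeq2, without the block, called 3 genes of the list lower, and 263 of 16256 genes in all. Eomes, a T-box factor of cytotoxic and exhausted cells, was fitted above 0, with 3.56 ± 0.35 CPM in control against 4.43 ± 1.30 CPM in KO.

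The follicular programme, with which TOX2 is associated in helper T cells, had 17 of 20 genes tested. Of these, 5 fell, 0 rose and 12 did not pass, and the median log2 fold change was -0.23. Of all tested genes 1.39% were called lower, and this list too was chosen with earlier results of these data known. Maf, a transcription factor of follicular helper and effector cells, went from 89.9 ± 13.7 to 39.5 ± 4.60 CPM (-1.19 ± 0.13, edgeR adjusted p = 0.00544) and was called whichever library was left out. The costimulator Icos (log2 fold change -0.97 ± 0.15, adjusted p = 0.0186), the AP-1 factor Batf (-0.62 ± 0.09, 0.0152) and Pdcd1, given above, fell as well. The fifth, named after its values were seen, was Sh2d1a, the signalling adaptor SAP, at -0.50 ± 0.09 (0.0428). Bcl6, the factor that defines follicular cells, had 43.9 ± 3.75 CPM in control against 44.1 ± 1.57 CPM in KO (0.01 ± 0.08, adjusted p = 0.982). Il21, Il4 and Ascl2 were too low to be tested.

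With 1 library fewer the fitted differences kept their direction while several calls were lost. Leaving out any single KO library left 1 follicular gene called lower, leaving out control replicate 2 left 3, and leaving out both libraries numbered 2 left 2. Icos lost its call without KO replicates 1 to 3 (adjusted p = 0.116, 0.0874 and 0.0933) or control replicate 1 (0.0557), with log2 fold changes between -1.08 and -0.76 over the 6 fits. Batf lost it without KO replicates 1 to 3 (0.115, 0.0539 and 0.0697), control replicate 2 (0.0566) or both libraries numbered 2 (0.0987), with -0.66 to -0.54 over the 6 fits. Sh2d1a was called in 1 of the 6 fits with a library left out, without control replicate 1 (0.0261), and was otherwise between 0.101 and 0.191, with log2 fold changes of -0.58 to -0.44. Its adjusted p was 0.0567 by limma-voom and 0.368 without both libraries numbered 2. With the block 8 follicular genes were called lower, against 4.39% of all tested genes. Among them were Cxcr5, the follicle homing receptor (adjusted p = 0.0026), Irf4 (0.0303) and Slamf6 (0.0427). Without the block Cxcr5 had an adjusted p of 0.0677 in the main edgeR fit. It was called by DESeq2 (0.00408), which called 6 follicular genes lower, and by edgeR without the low-count filter (0.0451). In all, DESeq2 called 263 of 16256 genes lower.

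Of 33 other genes for HMG-box proteins, 22 were tested and 11 were too low, 10 SOX genes and Hmgb4. Tfam fell (log2 fold change -1.09 ± 0.17, edgeR adjusted p = 0.020), 0 rose and 21 did not pass. Of all tested genes 1.39% were called lower, and 4.39% with the block. Tfam is the targeted gene of the study. The median of the 22 was 0.03. The T cell factors Tcf7 (0.08 ± 0.08) and Lef1 (0.15 ± 0.09), which encode TCF1 and LEF1, had 644 ± 65.5 and 217 ± 13.3 CPM in control libraries against 682 ± 7.11 and 242 ± 25.2 CPM in KO libraries, with overlapping groups (SD, n = 3 each). With the block Hmgb2, a chromatin protein of dividing cells (-0.44 ± 0.12 without the block; adjusted p = 0.00231 with it), and the histone methyltransferase Nsd2 (-0.32 ± 0.08; 0.0227) were called lower as well, 3 genes in all. For Tfam the adjusted p was above 0.05 without control replicate 2 (0.0551), KO replicates 1 to 3 (0.109, 0.0866 and 0.0844) or both libraries numbered 2 (0.123), while its log2 fold change stayed between -1.22 and -0.87 with any single library left out.

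The phosphatase complex that holds TOX4 had 0 of 5 genes called lower or higher and 0 at an unadjusted p under 0.05. Its median log2 fold change was -0.07. The PP1 catalytic subunit gene Ppp1ca had 688 ± 38.4 CPM in control against 638 ± 15.4 CPM in KO (-0.11 ± 0.07), and Wdr82 had 179 ± 15.6 against 191 ± 7.71 CPM (0.09 ± 0.08; SD, n = 3 each). The count was 0 with the block, by DESeq2 and by limma-voom as well. Over all tested genes edgeR called 1.39% lower without the block and 4.39% with it.

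Among 15 genes of thymic and innate lymphoid development, listed as CD4 lineage genes, 1 fell, 0 rose and 14 did not pass. Their median was -0.01. Over all tested genes 1.39% were called lower. With the block the shares were 4.39% lower and 1.97% higher. Nfil3, a basic leucine zipper factor that acts upstream of TOX in innate lymphoid development, went from 26.1 ± 4.20 to 11.95 ± 2.60 CPM (-1.12 ± 0.18, edgeR adjusted p = 0.020). It missed the threshold without control replicate 1 (0.0777) or 2 (0.0764), KO replicate 1 (0.113) or 3 (0.0527), or both libraries numbered 2 (0.0655), and its log2 fold change was -1.26 to -0.96 with any single library left out. With the block 3 were lower, Nfil3, Runx3 (adjusted p = 0.00825) and Id2 (0.00376), and 1 was higher, the chromatin organiser Satb1 (0.0258).

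**Figure D4:**
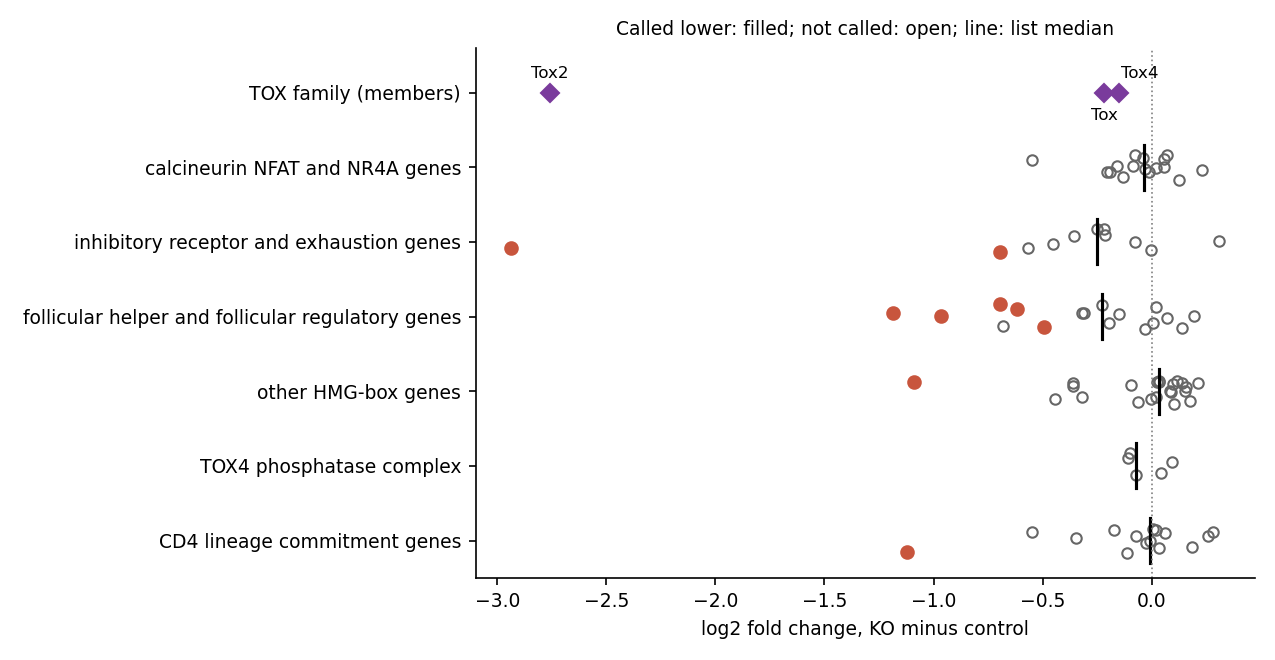
Fitted log2 fold change of KO against control (horizontal axis) for the 3 tested TOX family genes (diamonds) and the tested genes of 6 lists, filled where edgeR called them without the block, with a line at each list median. Tox2 at -2.76 lies near Tigit at -2.94, and the medians of the lists lie between -0.25 and 0.03.

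Genes whose profile over the 6 libraries was most like that of Tox2 were found by the root mean square difference between log2(CPM + 1) profiles, each centred on its mean, among the 9078 named genes that averaged 5 CPM or more. The closest were Fgl2, a secreted suppressive protein (difference 0.266), Tigit (0.273), the IL-9 receptor chain Il9r (0.281), the chemokine receptor Cxcr3 (0.293) and Ttc39c (0.312). Their Pearson r with Tox2 lay between 0.969 and 0.992 over the 6 libraries, which mostly repeats the gap between the groups. Fgl2 went from 13.9 ± 2.52 CPM in control to 3.04 ± 0.60 CPM in KO, and Cxcr3 from 45.3 ± 8.31 to 6.92 ± 0.88 CPM (SD, n = 3 each). All 5 genes were highest in control replicate 2, as was Tox2. Among the KO libraries Tox2, Fgl2 and Tigit were highest in replicate 1, whereas Il9r and Ttc39c were lowest there.

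The profiles closest to Tox belonged to other genes with small differences. They were Prkar1a, a regulatory subunit of protein kinase A (difference 0.0326), Lrp10 (0.0346), Ubl3 (0.0376), the lymphocyte receptor P2ry10 (0.0378) and the potassium channel gene Kcnq5 (0.0380), with r between 0.950 and 0.982. Their log2 fold changes lay between -0.24 and -0.15, on either side of the -0.22 of Tox. Ranked by Pearson r instead, 1 of the 5 was shared for Tox (Prkar1a) and 1 of the 5 for Tox2 (Tigit), so the names depend on the measure of likeness.

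**Figure D5:**
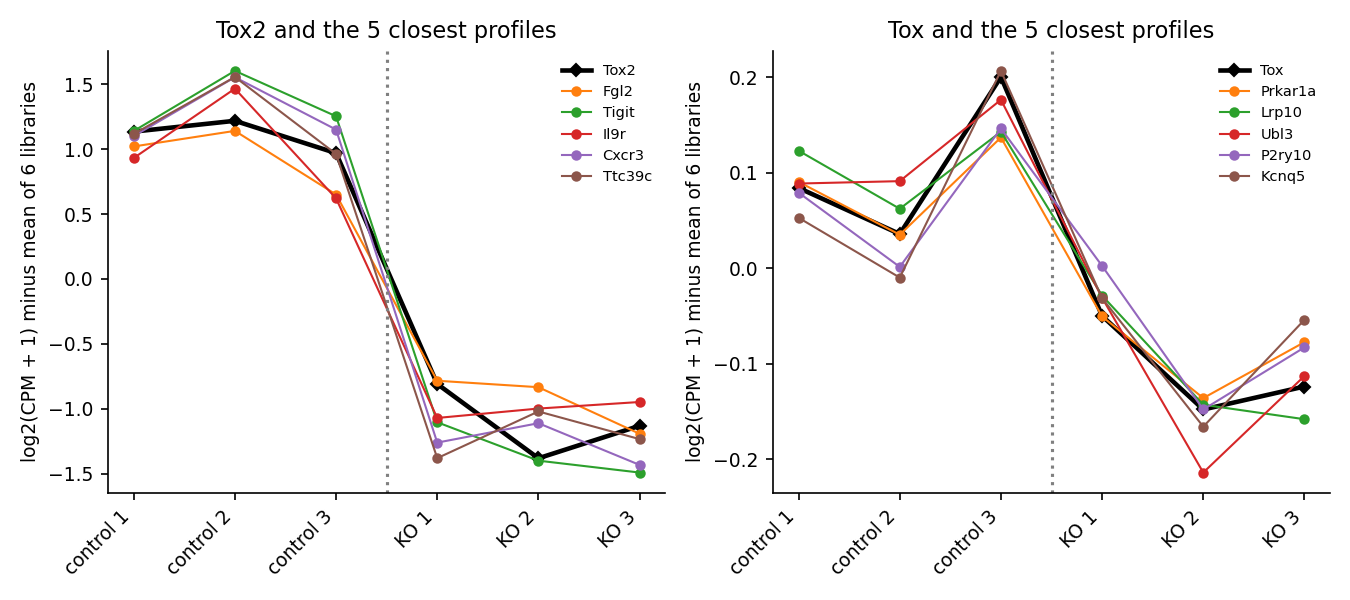
Centred log2(CPM + 1) (vertical axis) over the 6 libraries for Tox2 with its 5 closest genes (left) and Tox with its 5 closest genes (right), with a dotted line between control and KO. The Tox2 set reaches from 1.60 to -1.49 and the Tox set from 0.21 to -0.21, and both sets lie lower in KO on average, although P2ry10 overlaps between the groups.

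Markers of other cells that can express TOX genes were read in the same libraries. Of the natural killer and innate lymphoid markers, Ncr1, Klrb1c, Klre1, Klra8 and Il22 each averaged under 0.1 CPM in both groups. Tyrobp, a signalling adaptor that macrophages also express, had 13.3 ± 2.90 CPM in control against 16.4 ± 8.31 CPM in KO (SD, n = 3 each), and Eomes is given above. The CD8 markers Cd8a and Cd8b1 summed to 14.4 to 16.3 CPM in control and 13.5 to 19.04 CPM in KO. The 6 B cell markers summed to 549 to 578 CPM in control and 398 to 432 CPM in KO, nearly all of it Ighm, while Ms4a1 and Pax5 each averaged under 1 CPM. Ighm fell (edgeR adjusted p = 0.0134), and its part in the Tox2 difference was not tested. The 5 dendritic cell markers summed to at most 13.4 CPM and the 6 erythroid markers to at most 14.99 CPM in any library.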

How the data were processed

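The authors deposited raw read counts per Ensembl gene for 6 RNA libraries, made with HTSeq per the labels. Builds mm9 and mm10 stand in the submitters' processing notes, beside the tools bedtools, SAMtools, Bowtie2, HISAT2, Cufflinks and DESeq2, without a role for any. The sources used here give neither versions nor the annotation nor the strand setting. Of 22553 gene IDs, 22522 matched a symbol. The members, gene lists and motifs were chosen with earlier results of these data known, the motifs also with the promoters in view.

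The test was edgeR 4.0.16 under R 4.3.3 (filterByExpr with minimum count 10 and total 15, 11990 genes kept; TMM factors 0.990 to 1.03; quasi-likelihood F test; Benjamini-Hochberg over all tested genes). SE was derived from the F statistic. Totals of 19087757 to 27490253 counts make 3 counts equal to 0.110 to 0.157 CPM. The labels do not say that pools of a group were independent of each other beyond their numbers, so p-values rest on the variation among these samples, which may be technical. Libraries of a group differed beyond sampling noise (chi-square per degree of freedom 8.75 to 27.4). Deviations from the group means correlated at 0.41, 0.55 and 0.58 between libraries of the same number and at -0.53 to 0.06 otherwise. Deviations within a group cancel for each gene, so these correlations are not independent of each other. The main fit, which gave the calls, left the number out. An alternative fit took it as a block. The genes named were the 4 members, Tfam and Foxp3, the neighbours, the 5 closest profiles of Tox and Tox2, and in each list up to 4 called genes by adjusted p or the 2 most abundant; others were named after their values were seen. Alternatives were DESeq2 1.42.0, limma-voom (limma 3.58.1), DESeq2 size factors, no low-count filter, the block, each library left out and, chosen after seeing the data, both libraries numbered 2 left out. Levels per transcript length were planned but not computed, since transcript lengths were not used here. The fit was also run beforehand on data simulated from these libraries, and the outcome is not given here. The simulated libraries were drawn independently, without the link between libraries of the same number. Values of some marker genes are not reported here.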

Additional observations from a re-analysis of the deposited data

How the results depend on the processing

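Under the 12 alternatives the log2 fold changes of the members kept their direction and moved by less than the SD between pairs. They ranged from -3.04 to -2.49 for Tox2, from -0.25 to -0.17 for Tox and from -0.16 to -0.11 for Tox4. Over all genes, 167 were called lower and 12 higher by edgeR. The numbers were 526 and 236 with the replicate block, 263 and 72 by DESeq2, and 54 and 0 without both libraries numbered 2 (an alternative chosen after seeing the data). limma-voom called 136 lower and 3 higher. With a library left out, 26 to 166 were lower, fewest without KO replicate 1, and 0 to 10 higher. With the replicate block the lower genes numbered 1 for the calcineurin, NFAT and NR4A list, 5 for inhibitory receptors, 8 for follicular genes, 3 for other HMG-box genes and 3 for CD4 lineage genes, where 1 was higher. DESeq2 called 3 inhibitory receptor genes, 6 follicular genes and 2 other HMG-box genes lower. Without both libraries numbered 2 there was 1 lower inhibitory receptor gene, 2 follicular genes, 0 HMG-box genes and 0 CD4 lineage genes. With a library left out the ranges were 1 to 2, 1 to 4, 0 to 1 and 0 to 1. Nr4a1 (0.13) changed sign without KO replicate 2 (-0.017) and without both libraries numbered 2 (-0.010), and reached 0.27 without KO replicate 3. Ranking by Pearson r kept 1 of the 5 closest genes for Tox and 1 for Tox2. The cause of these changes was not tested. Depth limits Tox3 to a description of single counts.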
